A study of Homo sapiens with 24 samples.

Results

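HINT1, TM4SF20, STARD10, BDKRB2, TTC39A and RRAD are 6 of the 60609 genes of the expression table, and were named because their transcripts were much higher after an siRNA against BOP1 than after a control siRNA. The values that chose them were the siRNA differences themselves, so those differences are given here as a description with no test. All 6 were among the 16062 genes tested, which had at least 1 TPM (a share of a library's RNA, scaled for transcript length) in at least 3 libraries. Genes were ranked only if they passed the limma test at both times, had no overlap between siBOP1 and siFLuc libraries and reached a group mean of 5 TPM at each time, which left 86 genes in mock-treated and 49 in interferon-treated cells. Ranked by the mean log2 difference over both times, HINT1, TM4SF20, STARD10 and BDKRB2 held the ranks 1 to 4 in mock-treated cells, and HINT1, TM4SF20, RRAD and TTC39A held the ranks 1 to 4 in interferon-treated cells. The values just inside and outside were 1.05 for BDKRB2 and 1.05 for FGB in mock-treated cells, and 1.22 for TTC39A and 1.16 for FGB under interferon. RRAD and TTC39A did not meet these conditions in mock-treated cells, nor did STARD10 and BDKRB2 under interferon, so they have no rank there. The conditions used the same siRNA differences, so the ranks are no test of them.

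The cells were A549, a human lung adenocarcinoma line. All groups were transfected for 48 h, either with a pool of siRNAs against BOP1 (siBOP1, labelled BOP1 knockdown) or with an siRNA against firefly luciferase (siFLuc), an insect gene that served as the control. Each kind of cell then received a mock treatment or interferon beta (IFN) at 1000 U/mL for 8 h or 12 h, giving 8 groups of 3 libraries of polyadenylated RNA. The series asks how ribosome production bears on translation during the interferon response, and the libraries used here measure RNA abundance only.

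BOP1 works with PES1 and WDR12 in a nucleolar complex that processes ribosomal RNA for the large ribosomal subunit. Cells that cannot finish ribosomes are known to stabilise p53 and to slow their cycle. Interferon beta signals through its receptor, JAK kinases and STAT factors to induce antiviral genes, and also lowers many other transcripts. The 6 genes belong to no common pathway. HINT1 encodes a small histidine triad enzyme that hydrolyses purine phosphoramidates and binds the transcription factors MITF and USF2. TM4SF20 encodes a membrane protein of the endoplasmic reticulum that restrains cleavage of the transcription factor CREB3L1. STARD10 encodes a phospholipid transfer protein with a START domain. BDKRB2 encodes the B2 receptor for bradykinin, a receptor coupled to Gq proteins. TTC39A encodes a protein with tetratricopeptide repeats. RRAD encodes a Ras-related GTPase of the RGK family, whose members bind the beta subunits of voltage-gated calcium channels.

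The 6 genes lie on 6 different chromosomes (coordinates of GENCODE 29 on GRCh38, all protein-coding). HINT1 (ENSG00000169567.12) spans chromosome 5, 131159027 to 131171735, on the minus strand. TM4SF20 (ENSG00000168955.4) spans chromosome 2, 227362156 to 227381995, minus strand, and STARD10 (ENSG00000214530.9) spans chromosome 11, 72754729 to 72793681, minus strand. BDKRB2 (ENSG00000168398.6) is the one gene of the set on the plus strand, at chromosome 14, 96204679 to 96244166. TTC39A (ENSG00000085831.15) spans chromosome 1, 51287258 to 51345116, minus strand, and RRAD (ENSG00000166592.12) spans chromosome 16, 66921679 to 66925644, minus strand.

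The 30 bases directly before the RefSeq start (GRCh38.p14) are printed 5′ to 3′ for the 5 genes with an entry in the promoter table, which holds no entry used here for RRAD. Capitals mark the GC box GGGCGG, here read on the opposite strand.
HINT1, chr5:131165257-131165286, minus strand: gccctctcgcgccgcacgctctgcgggttc
TM4SF20, chr2:227379307-227379336, minus strand: ggataaaaggcaacatagtaccatgcaagc
STARD10, chr11:72794048-72794077, minus strand: gccattccggtggaattcaccgcggtctcc
BDKRB2, chr14:96204809-96204838, plus strand: gcccttgaaagatgagctgttcccgccgcc
TTC39A, first of 4 listed starts, chr1:51345117-51345146, minus strand: CCGCCCtgcCCGCCCcgtccaggtgctgcc

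The RefSeq starts of HINT1, TM4SF20 and BDKRB2 lie inside the GENCODE spans given above. The promoter windows of 300 bases (250 before to 50 after the start) differed widely in base composition. TM4SF20 had 35.0% G and C and 3 CG dinucleotides, whereas HINT1 had 64.3% and 26, STARD10 57.7% and 13, and BDKRB2 67.0% and 14. The median over 35116 RefSeq promoters was 58.7% and 14. The 4 TTC39A starts ran from 48.0% to 80.7%. Motifs were searched on both strands as exact letters. CCAAT was found for TM4SF20 and TTC39A (34.61% of all promoters), GGGCGG for TTC39A (44.95%), CACGTG for STARD10 and TTC39A (7.26%), TTCNNNGAA for TTC39A (7.66%) and TATAAA for HINT1 (11.53%). These shares are per window, whereas TTC39A had 4 windows. Its CACGTG lay only in window 4 and its TTCNNNGAA only in window 3. The TATAAA match of HINT1 began at position -244 from the start, on the opposite strand. TGANTCA (7.71%), TGACGTCA (1.85%) and the core of the interferon response element (3.57%) were found in none of the 8 windows. No motif of the 8 searched was shared by the 5 genes.

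The siRNA's target was checked first. BOP1 transcripts in siBOP1 libraries averaged 28.1% of the siFLuc mean in mock-treated cells at 8 h, 23.5% at 12 h, 29.6% under IFN at 8 h and 24.1% at 12 h. The highest siBOP1 library held 19.5 TPM and the lowest siFLuc library 32.4 TPM. Libraries carry the numbers 1, 2 and 4 in the table, and values below are given in that order. The labels number replicates only up to 3, so a library numbered 4 is known by its group alone. One library stood apart, number 4 of the siFLuc mock group at 12 h. It held 6.86% mitochondrial RNA, against 10.9% to 15.9% in the other 23 libraries, and its 10 most abundant genes made up 9.50% of its RNA, against 12.3% to 16.2%. Its correlations with its own group (r of 0.961 and 0.966) were the lowest between libraries of 1 group. Some results at 12 h that use mock-treated cells are therefore also given without it, as stated with each value. All other values of the main fit at 12 h that use mock-treated cells include it. Epithelial keratins were high in every library (KRT8 at 2086 TPM or more, KRT18 at 1785 TPM or more) and EPCAM was low (1.92 to 5.48 TPM). The leukocyte markers PTPRC (at most 0.021 TPM) and CD3E (0 TPM) were at or near 0, whereas CD68 ran from 38.5 to 402 TPM and rose with IFN over both siRNAs by 2.11 at 8 h and 2.77 at 12 h on the log2 scale. The part of this change in the IFN results was not tested. The endothelial markers PECAM1 and VWF and the fibroblast markers DCN, LUM and COL1A2 each stayed at or under 0.782 TPM.

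In control cells (siFLuc, mock, 8 h) the genes covered a wide range of abundance. HINT1 stood at 251 TPM, the 96.9th percentile of the tested genes. STARD10 (13.2 TPM, 54.9th percentile) and TM4SF20 (12.3 TPM, 53.4th) lay near the middle, and their libraries overlapped. BDKRB2 followed at 7.81 TPM (43.4th), RRAD at 4.83 TPM (34.6th) and TTC39A at 2.47 TPM (24.5th), with no overlap between these neighbours.

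**Figure D1:**
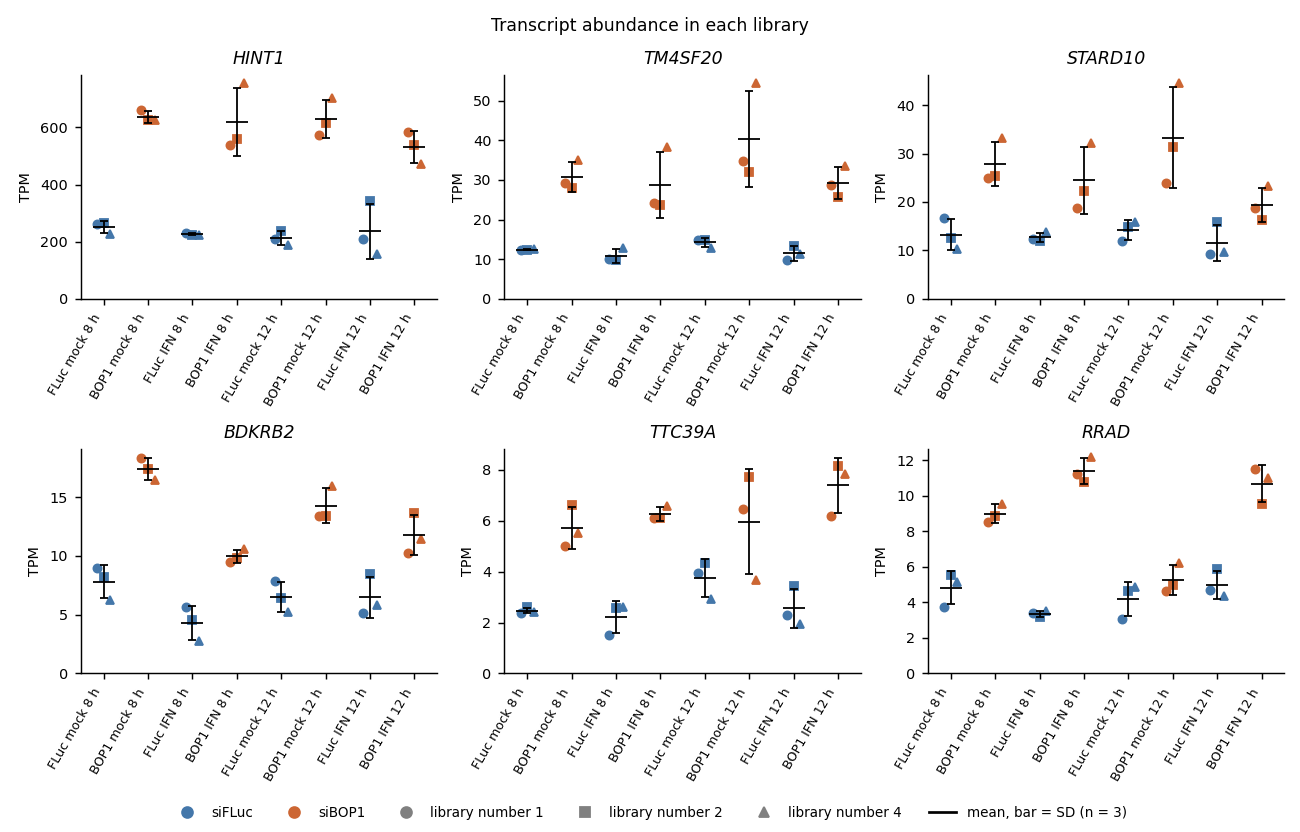
TPM (vertical axis, linear, from 0) of each gene in each of the 24 libraries, by group (horizontal axis); circles, squares and triangles are the libraries numbered 1, 2 and 4, and bars are mean ± SD of 3 libraries. siBOP1 libraries (orange) lie above siFLuc libraries (blue) of the same treatment and time, except that the groups overlap for TTC39A and RRAD in mock-treated cells at 12 h.

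HINT1, the most abundant of the 6, was higher with siBOP1 in all 4 conditions, with no overlap. In such bulk RNA, more cells expressing a gene and more RNA per cell cannot be told apart. In mock-treated cells at 8 h the 3 siFLuc libraries held 261, 265 and 226 TPM and the 3 siBOP1 libraries 662, 625 and 626 TPM. At 12 h they held 211, 237 and 190 TPM against 574, 615 and 702 TPM. Each siBOP1 library exceeded each siFLuc library, by a ratio of means of 2.54 at 8 h and 2.96 at 12 h. Under IFN, the siFLuc libraries held 230, 223 and 224 TPM at 8 h and 209, 342 and 157 TPM at 12 h. The siBOP1 libraries held 540, 560 and 754 TPM at 8 h and 586, 539 and 472 TPM at 12 h. The 12 siBOP1 libraries were all above the 12 siFLuc libraries, and the widest spreads were those of siBOP1 cells under IFN at 8 h (618 ± 119 TPM, SD, n = 3) and of siFLuc cells under IFN at 12 h (236 ± 95.5 TPM, SD, n = 3).

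TM4SF20 showed the same separation at a lower level. With mock treatment for 8 h the siFLuc libraries held 12.3, 12.2 and 12.5 TPM and the siBOP1 libraries 29.2, 28.0 and 35.1 TPM. At 12 h they held 14.9, 14.9 and 12.9 TPM against 34.7, 32.0 and 54.3 TPM. The library numbered 4 was the highest siBOP1 library both times. Under IFN the siFLuc libraries held 10.0, 9.68 and 12.9 TPM at 8 h and 9.71, 13.3 and 11.3 TPM at 12 h. The siBOP1 libraries held 24.2, 23.7 and 38.4 TPM at 8 h and 28.7, 25.6 and 33.6 TPM at 12 h. The ratios of means lay between 2.49 and 2.83, and the lowest of the 12 siBOP1 libraries (23.7 TPM) stood above the highest of the 12 siFLuc libraries (14.9 TPM).

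STARD10 differed less and varied more. The siFLuc libraries of mock-treated cells at 8 h held 16.7, 12.5 and 10.4 TPM and the siBOP1 libraries 24.9, 25.4 and 33.1 TPM. At 12 h they held 11.9, 14.9 and 16.0 TPM against 24.0, 31.4 and 44.5 TPM. The groups did not overlap, with ratios of 2.11 and 2.34. Under IFN the siFLuc libraries held 12.4, 11.9 and 13.7 TPM at 8 h and 9.29, 15.8 and 9.60 TPM at 12 h. The siBOP1 libraries held 18.8, 22.3 and 32.2 TPM at 8 h and 18.8, 16.3 and 23.3 TPM at 12 h. Under IFN at 12 h the libraries numbered 2 came close to each other (15.8 and 16.3 TPM), and the ratio of means was 1.68.

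BDKRB2 was higher with siBOP1 in each condition and was lower with IFN at 8 h. After 8 h of mock treatment the siFLuc libraries held 8.99, 8.18 and 6.28 TPM and the siBOP1 libraries 18.3, 17.4 and 16.5 TPM. At 12 h they held 7.83, 6.42 and 5.25 TPM against 13.4, 13.4 and 16.0 TPM. The ratios were 2.23 and 2.19. Under IFN at 8 h both kinds of cell held less, with 5.63, 4.51 and 2.78 TPM for siFLuc and 9.49, 9.85 and 10.5 TPM for siBOP1. At 12 h the values were 5.17, 8.42 and 5.83 TPM against 10.3, 13.7 and 11.5 TPM. The ratios under IFN were 2.31 and 1.82, and the lowest siBOP1 library of all (9.49 TPM) stood just above the highest siFLuc library (8.99 TPM).

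TTC39A, the least abundant of the 6 in control cells, did not overlap in 3 of the 4 conditions. The siFLuc libraries of mock-treated cells at 8 h held 2.39, 2.60 and 2.43 TPM and the siBOP1 libraries 4.99, 6.60 and 5.49 TPM. At 12 h they held 3.94, 4.35 and 2.90 TPM against 6.47, 7.70 and 3.69 TPM. Here the siBOP1 library numbered 4 fell inside the range of the siFLuc libraries. Under IFN the siFLuc libraries held 1.50, 2.57 and 2.61 TPM at 8 h and 2.31, 3.42 and 1.96 TPM at 12 h. The siBOP1 libraries held 6.12, 6.11 and 6.59 TPM at 8 h and 6.16, 8.15 and 7.83 TPM at 12 h. The ratios of means were 2.30 and 1.59 in mock-treated cells and 2.82 and 2.88 under IFN.

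RRAD ratios ran over the widest range of the set. After 8 h of mock treatment the siFLuc libraries held 3.77, 5.56 and 5.16 TPM and the siBOP1 libraries 8.56, 8.90 and 9.57 TPM. At 12 h they held 3.09, 4.64 and 4.87 TPM against 4.64, 4.99 and 6.25 TPM. The groups overlapped at 12 h, where the ratio of means was 1.26, against 1.87 at 8 h. Under IFN the siFLuc libraries held 3.42, 3.17 and 3.51 TPM at 8 h and 4.68, 5.89 and 4.38 TPM at 12 h. The siBOP1 libraries held 11.3, 10.8 and 12.2 TPM at 8 h and 11.5, 9.53 and 11.0 TPM at 12 h. The ratios under IFN were 3.39 and 2.15, so that RRAD had both the highest and the lowest of the 24 ratios.

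In 22 of the 24 gene and condition pairs the siBOP1 libraries lay entirely above the siFLuc libraries. Over all tested genes this held for 12.4% in mock-treated cells at 8 h and for 10.4% at 12 h, and with IFN for 9.84% at 8 h and 7.43% at 12 h. Since the genes were chosen on these contrasts, nothing is read from the difference. On the scale of log2(TPM + 1), where changes of low genes come out too small, the median difference of the 6 was 1.05 in mock-treated cells at 8 h, 1.08 at 12 h, 1.25 under IFN at 8 h and 1.11 at 12 h. The medians of all tested genes were 0.03, 0.00, -0.01 and -0.01.

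**Figure D2:**
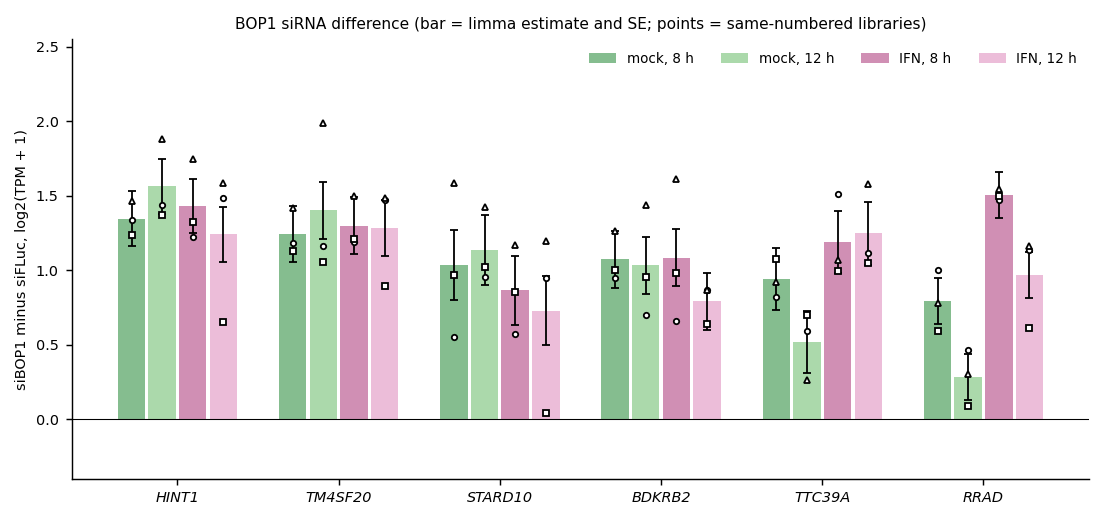
siBOP1 minus siFLuc difference in log2(TPM + 1) (vertical axis) for each gene and condition; bars are the fitted estimate with its SE, and points are the differences between libraries of the same number. All 24 estimates are above 0, from 0.29 for RRAD in mock-treated cells at 12 h to 1.56 for HINT1 in the same cells.

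The fitted siRNA differences by condition, which chose the genes, are values only. HINT1 differed by 1.35, 1.56, 1.43 and 1.24 (mock 8 h, mock 12 h, IFN 8 h, IFN 12 h, log2 scale, SE 0.18 each), and TM4SF20 by 1.24, 1.40, 1.30 and 1.28. STARD10 differed by 1.03, 1.14, 0.87 and 0.73 and BDKRB2 by 1.07, 1.03, 1.08 and 0.79 in the same order. TTC39A (0.94, 0.52, 1.19 and 1.25) and RRAD (0.79, 0.29, 1.51 and 0.97) had larger values under IFN than in mock-treated cells at both times. The smallest values rested on single libraries. For RRAD in mock-treated cells at 12 h, 0.29 became 0.12 without siFLuc number 1 and 0.18 without siBOP1 number 4. For TTC39A there, 0.52 became 0.33 without siBOP1 number 2 and 0.78 without siBOP1 number 4. Without the siFLuc library that stood apart, the values at 12 h in mock-treated cells were 1.49 for HINT1, 1.34 for TM4SF20, 1.22 for STARD10, 0.91 for BDKRB2, 0.39 for TTC39A and 0.38 for RRAD. The libraries numbered 4 raised some values and lowered others. With the libraries numbered 1 and 2 alone, STARD10 differed by 0.76, 0.99, 0.71 and 0.50, and TM4SF20 by 1.16, 1.11, 1.20 and 1.18, all below the values with 3 libraries. TTC39A differed by 0.95, 0.65, 1.25 and 1.08, above those values in 3 of the 4 conditions.

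The IFN effect was then compared over both siRNAs, a contrast that gives siBOP1 and siFLuc cells equal weight and so does not use the difference that chose the genes. The ranking conditions also depended on the spread between libraries, which enters these tests too. The p-values of the 6 genes may therefore be too small. At 8 h, 1 of the 6 passed the test in the limma fit (adjusted p under 0.05), against 25.7% of all tested genes, so the count is near the background. BDKRB2 fell by 0.75 on the log2 scale (SE 0.14, limma adjusted p 0.000272). In siFLuc cells all IFN libraries (2.78 to 5.63 TPM) lay below all mock libraries (6.28 to 8.99 TPM), and the same held in siBOP1 cells (9.49 to 10.5 against 16.5 to 18.3 TPM). The difference was -0.76 in siFLuc and -0.75 in siBOP1 cells. The other 5 genes had differences of -0.10 (HINT1), -0.15 (TM4SF20), -0.12 (STARD10), 0.00 (TTC39A) and -0.05 (RRAD), with limma adjusted p from 0.451 to 0.998. The median of the 6 was -0.11 and that of all genes -0.12.

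At 12 h, 2 of the 6 passed, against 28% of all tested genes, and they moved in opposite directions. RRAD rose by 0.56 (SE 0.11, limma adjusted p 0.000613). In siBOP1 cells all IFN libraries (9.53 to 11.5 TPM) were above all mock libraries (4.64 to 6.25 TPM), while in siFLuc cells the ranges overlapped (4.38 to 5.89 against 3.09 to 4.87 TPM). STARD10 fell by 0.51 (SE 0.17, limma adjusted p 0.0248), with siBOP1 libraries at 16.3 to 23.3 TPM under IFN and 24.0 to 44.5 TPM in mock-treated cells and with overlapping ranges in siFLuc cells. TM4SF20 had a difference of -0.36 (SE 0.13) and an adjusted p of 0.05001, just over the threshold. Whether it passed depended on the setting, and it did in 10 of 21 alternative settings (limma adjusted p 0.00961 to 0.155 over all 21). With the library number as a block it passed (limma adjusted p 0.016), which brings the count to 3 of 6. Under the block 41.6% of all tested genes passed, so this count too is near the background. HINT1 (-0.08), BDKRB2 (-0.14) and TTC39A (-0.05) had adjusted p from 0.497 to 0.828. The STARD10 call was lost when any of 5 libraries was left out, namely number 4 (adjusted p 0.079) of the siBOP1 mock group, number 2 (0.0687) of the siBOP1 IFN group, number 4 (0.0528) of the siFLuc mock group, and number 1 (0.069) or number 4 (0.0548) of the siFLuc IFN group. It was also lost with no filter beyond a value above 0 (0.0581), with only the groups compared (0.0535) and with the libraries numbered 1 and 2 only (0.0725). Without the siFLuc mock library that stood apart, RRAD had 0.60 (limma adjusted p 0.000379) and TM4SF20 passed with -0.39 (limma adjusted p 0.0461). These p-values measure the spread between libraries that the labels call replicates, with no statement that they came from separate cultures.

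The direction of the background depended on scaling. Of all tested genes, 1348 were higher and 2785 lower under IFN at 8 h, and 1951 higher and 1555 lower after median-of-ratios rescaling, which moved the median of all genes from -0.12 to -0.02. At 12 h the counts were 1775 and 2720, and 2266 and 2071 after rescaling. RRAD at 8 h, which did not pass, had 0.06 in place of -0.05 after rescaling, and HINT1 0.02 in place of -0.10. The calls for BDKRB2 and RRAD stood in all 21 alternative settings, with ranges of -0.84 to -0.64 and 0.47 to 0.68.

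**Figure D3:**
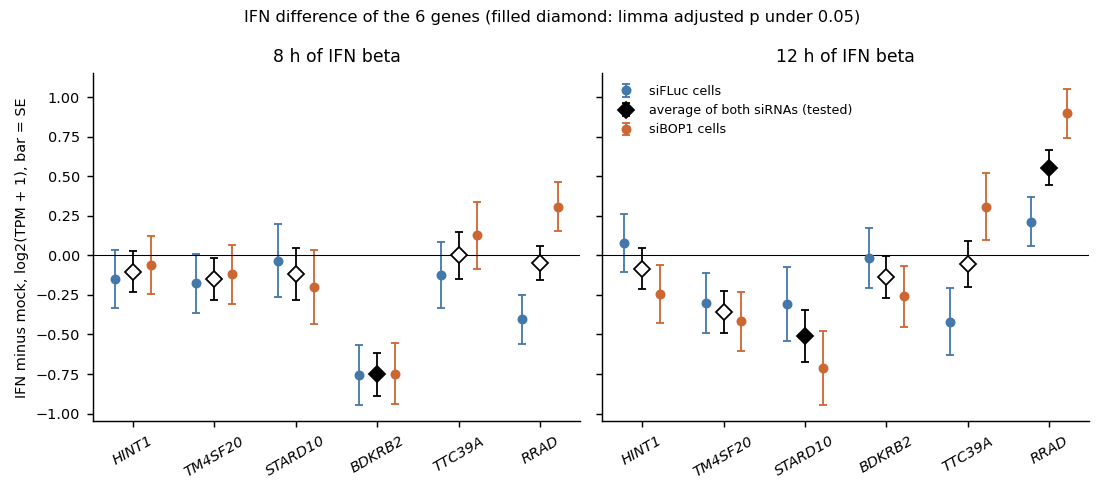
IFN minus mock difference in log2(TPM + 1) (vertical axis, bars are SE) of each gene at 8 h (left) and 12 h (right), in siFLuc cells (blue), in siBOP1 cells (orange) and averaged over both (diamonds, filled where the limma adjusted p is under 0.05). BDKRB2 has -0.76 in siFLuc and -0.75 in siBOP1 cells at 8 h, and RRAD lies lower in siFLuc than in siBOP1 cells at both times.

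The time in culture was compared in the same way. Between 8 h and 12 h in mock-treated cells, RRAD fell by 0.42 (SE 0.11, limma adjusted p 0.0324), and it was the 1 gene of the 6 to pass, against 3.92% of all tested genes. The fall was visible in siBOP1 cells, from 8.56 to 9.57 TPM at 8 h to 4.64 to 6.25 TPM at 12 h, whereas the siFLuc ranges overlapped. The call was lost when any of 8 of the 12 mock libraries was left out (adjusted p up to 0.0857). Those libraries were siBOP1 numbers 1, 2 and 4 and siFLuc numbers 2 and 4 at 8 h, and siBOP1 numbers 1 and 2 and siFLuc number 1 at 12 h. It was also lost with no filter (0.054) and with only the groups compared (0.118), and it stood without siFLuc number 4 at 12 h (-0.47, limma adjusted p 0.0213). Under IFN none of the 6 passed in the limma fit (1 of 6 at an unadjusted p under 0.05), against 15.5% of all tested genes. BDKRB2 came nearest, with a difference of 0.36 (SE 0.14, limma adjusted p 0.0748, or 0.0484 with the library number as a block over both times). Of all tested genes, 470 were higher and 159 lower at 12 h in mock-treated cells and 1992 and 505 under IFN, and after median-of-ratios rescaling 406 and 385, and 1319 and 1418.

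Whether the IFN effect itself differed between the times was tested as an interaction over both siRNAs. None of the 6 passed in the limma fit (2 of 6 at an unadjusted p under 0.05), and 0.00623% of all tested genes, 1 gene, did. RRAD had an interaction of 0.60 (SE 0.15, limma adjusted p 0.313) and BDKRB2 one of 0.62 (SE 0.19, adjusted p 0.517). With the library number as a block these were 0.0713 and 0.125. The 12 h rise of RRAD and the 8 h fall of BDKRB2 were therefore not shown to be particular to their time.

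How the siRNA difference changed with IFN is given as values only, because it rests on the contrasts that chose the genes. RRAD's siRNA difference was larger under IFN by 0.71 at 8 h and 0.69 at 12 h, and TTC39A's by 0.25 and 0.73. The other 4 had values between -0.17 and 0.09 at 8 h and between -0.41 and -0.12 at 12 h. Seen from the treatment, RRAD had an IFN difference of -0.40 in siFLuc and 0.31 in siBOP1 cells at 8 h, and 0.21 and 0.90 at 12 h. At 8 h its IFN and mock libraries did not overlap in either kind of cell, with opposite signs, as for 0.112% of all tested genes. Nothing is read from that share, since RRAD was chosen on contrasts that enter it. TTC39A had -0.12 and 0.13 at 8 h, and -0.42 and 0.31 at 12 h.

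Across the 24 libraries the 6 genes followed each other with Pearson r of log2 values from 0.57 (STARD10 and RRAD) to 0.93 (HINT1 and TM4SF20), with the siRNA difference included. Within groups, after subtraction of the group means, TM4SF20 and STARD10 still had r = 0.74 and HINT1 and STARD10 0.59, while the other 13 pairs ran from -0.16 to 0.50. These libraries share their number and their composition: the libraries numbered 4 were above the mean of the other 2 in 6 of 8 groups for TM4SF20 and for STARD10, in 7 for RRAD, in 3 for TTC39A and in 2 each for HINT1 and BDKRB2. The part of the library number in these correlations was not tested.

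The genes that followed each member most closely over the 24 libraries were named by the 2 highest Pearson r. These r include the siRNA difference that chose the members, so nothing is read from their height. They also ignore the size of a change. With siBOP1 in mock-treated cells at 8 h, DDOST differed by 0.19 to 0.26 over 15 alternative settings, against 1.35 for HINT1 in the main fit. For HINT1 they were DDOST (0.96) and VAMP3 (0.94), for TM4SF20 SELENOM (0.95) and TESC (0.95), and for STARD10 HLA-DMB (0.93) and TM4SF20 itself (0.92). For BDKRB2 they were SARAF (0.94) and ALX4 (0.92), for TTC39A INSL4 (0.87) and GGT1 (0.87), and for RRAD STOML1 (0.88) and RPN2 (0.87). DDOST and RPN2 encode subunits of the oligosaccharyltransferase of the endoplasmic reticulum, and SARAF a regulator of store-operated calcium entry.

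Relatives and partners of each gene were drawn from 8 lists of 71 further genes, of which 55 were tested. With siBOP1 in mock-treated cells at 8 h, 2 of the 55 were higher and 1 lower in the limma fit, against 1.49% and 0.666% of all tested genes. At 12 h 2 were higher and 2 lower (0.903% and 0.697%). Under IFN the counts were 1 and 1 at 8 h (1.25% and 0.76%) and 0 and 0 at 12 h (0.392% and 0.268%), where 7 had an unadjusted p under 0.05. With the library number as a block the counts were 5 and 5, 4 and 4, 3 and 6, and 3 and 3. The background under the block was 8.49%, 7.66%, 8.81% and 3.77% in either direction. The median difference of the 55 lay between -0.05 and 0.07, near that of all genes. After median-of-ratios rescaling the background at 8 h in mock-treated cells was 202 higher and 152 lower genes, in place of 240 and 107.

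**Figure D4:**
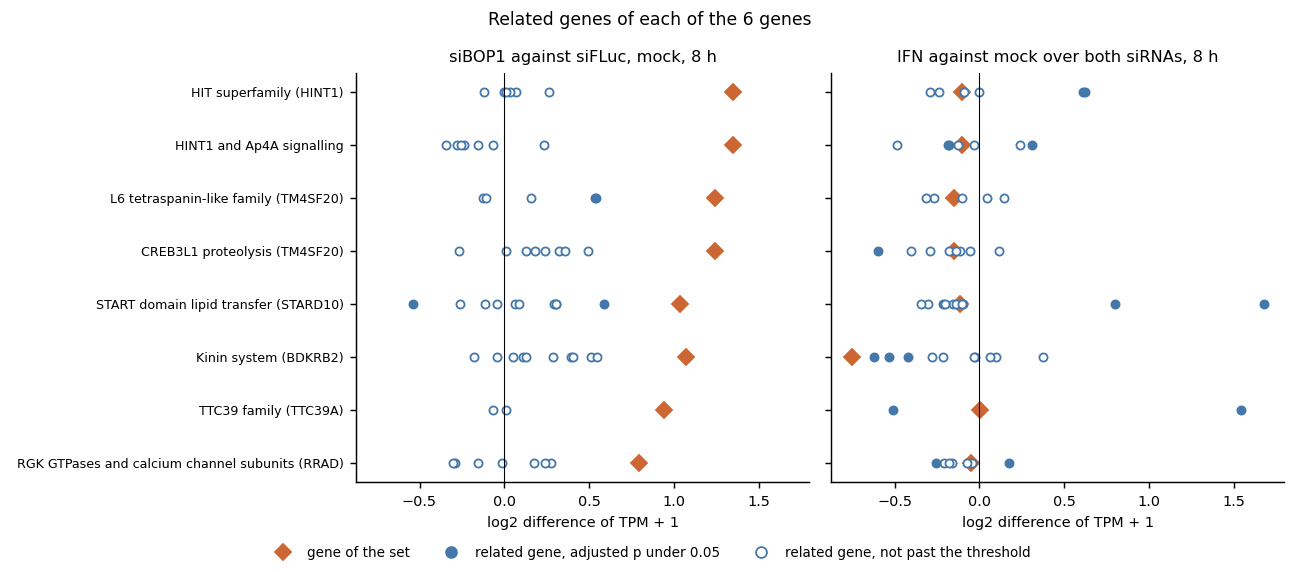
Log2 difference of TPM + 1 (horizontal axis) of the related genes in each list (rows), for siBOP1 against siFLuc in mock-treated cells at 8 h (left) and IFN against mock over both siRNAs at 8 h (right); diamonds are the 6 genes, filled circles are related genes with a limma adjusted p under 0.05. The diamonds stand to the right of all their relatives in the left panel, as chosen, and not in the right panel.

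Among the relatives of STARD10, 10 START domain genes were tested. PCTP, the phosphatidylcholine transfer protein, rose with siBOP1 by 0.59 in mock-treated cells at 8 h, 0.64 at 12 h and 0.66 under IFN at 8 h (SE 0.12 each, limma adjusted p 0.0123, 0.00895 and 0.00543). Its level was 13.1 ± 0.75 TPM with siFLuc and 20.2 ± 2.40 TPM with siBOP1 in mock-treated cells at 8 h (SD, n = 3 each). STARD7, which carries phosphatidylcholine to mitochondria, fell by 0.54 and 0.51 in mock-treated cells (limma adjusted p 0.00758 and 0.0147), from 63.8 ± 3.66 to 43.7 ± 4.44 TPM at 8 h (SD, n = 3 each). Under IFN, STARD7 had -0.38 and -0.40 and did not pass. STARD4, a sterol carrier, did not pass with siBOP1 but rose with IFN by 1.68 at 8 h and 1.56 at 12 h (SE 0.08, limma adjusted p 5.73e-13 and 2.08e-12). STARD5 rose by 0.80 and 0.95, and ACOT11, a thioesterase with a START domain, fell by 0.40 at 12 h. The START genes thus moved in both directions, with STARD10 and STARD4 opposite under IFN at 12 h. In mock-treated cells these calls rested on single libraries. PCTP was lost at 8 h without siBOP1 number 2 (adjusted p 0.079) or siFLuc number 1 (0.0505), and at 12 h without siBOP1 number 4 (0.0673). STARD7 was lost at 8 h without siBOP1 number 4 (0.0513), and at 12 h without siBOP1 number 1 (0.0727) or 2 (0.0716) or siFLuc number 4 (0.0563).

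The relatives of TM4SF20 were 5 genes of the L6 family and 8 genes of CREB3L1 processing. TM4SF18, an L6 family gene, rose with siBOP1 by 0.54 at 8 h and 0.58 at 12 h in mock-treated cells (SE 0.14, limma adjusted p 0.048 and 0.0391), but it stood in only 1 of 6 fits without a library at 8 h, the one without siFLuc number 4, and in 0 of 6 at 12 h (limma adjusted p up to 0.231). No gene of the CREB3L1 list passed with siBOP1 in limma at any condition, and CREB3L1 itself had 0.13 to 0.19. The unadjusted p was under 0.05 for 1, 1, 2 and 0 of those 8 genes, and with the block 1, 1, 1 and 0 passed. With IFN at 8 h CREB3L1 fell by 0.60 (SE 0.14, limma adjusted p 0.00346), and CREB3 rose by 0.23 at 12 h (adjusted p 0.0292).

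For HINT1, 6 other histidine triad genes were tested and none passed with siBOP1 in limma, with the block or at an unadjusted p under 0.05 in any of the 4 conditions. HINT3, its relative in the same family, had -0.12, -0.08, 0.03 and -0.11. With IFN, HINT3 rose by 0.61 at 8 h and 0.73 at 12 h (SE 0.09, limma adjusted p 5.28e-05 and 5.12e-06) and GALT, the galactose-1-phosphate uridylyltransferase, by 0.62 and 0.60. DCPS, the scavenger decapping enzyme, fell by 0.38 at 12 h (adjusted p 0.0346). Of 7 partner genes, RUVBL2, a helicase-like ATPase, fell with siBOP1 by 0.37 in mock-treated cells at 12 h and by 0.35 under IFN at 8 h (limma adjusted p 0.0429 and 0.0469), but it passed in 0 of 6 fits without a library each time (limma adjusted p up to 0.176). Of these 7 partners, 4, 3, 3 and 2 had an unadjusted p under 0.05 with siBOP1 in the 4 conditions. With the block 4, 3, 3 and 2 passed, all lower, where 2.58%, 3.35%, 3.84% and 1.61% of all tested genes were lower. With IFN, KARS1, the lysyl-tRNA synthetase that makes Ap4A, rose by 0.31 and 0.15, and RUVBL2 fell by 0.18 and 0.30. RUVBL1 fell by 0.26 at 12 h, and USF2 by 0.19 at 8 h.

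The kinin system was represented by 10 genes besides BDKRB2. None passed with siBOP1 in limma, while 2, 1, 2 and 1 had an unadjusted p under 0.05 and 1 passed with the block in each condition. F12, which starts kinin release, fell with IFN by 0.62 at 8 h and 0.90 at 12 h (SE 0.10, limma adjusted p 7.81e-05 and 5.65e-07). PLCB3 and GNAQ, which carry the signal of Gq-coupled receptors, fell by 0.54 and 0.42 at 8 h (limma adjusted p 0.000393 and 0.00955). At 8 h 3 of the 10 relatives passed as lower and none as higher, where 17.3% of all tested genes were lower. On 10 genes this count is near the background, and the median of the 10 was -0.12, as for all genes. The 3 calls stood in all 21 alternative settings, median-of-ratios rescaling included. At 12 h F12 alone of the 10 passed, and with the block 2 were higher and 2 lower.

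TTC39B and TTC39C are the 2 relatives of TTC39A. Neither passed with siBOP1 in limma or at an unadjusted p under 0.05. TTC39B rose with IFN by 1.54 at 8 h and 1.23 at 12 h (SE 0.13, limma adjusted p 4.54e-09 and 1.52e-07), for example from 1.52 ± 0.41 to 5.68 ± 0.38 TPM in siFLuc cells at 8 h (SD, n = 3 each), and TTC39C fell by 0.51 at 8 h (adjusted p 0.0127). TTC39A over both siRNAs had 0.00 and -0.05. Of the 7 tested RGK GTPases, calcium channel subunits and calmodulins listed with RRAD, none passed with siBOP1 in limma, with 0, 1, 2 and 0 at an unadjusted p under 0.05, and with the block 1 was lower under IFN at 8 h. CALM2 fell with IFN by 0.26 and 0.29, and CALM3 rose by 0.18 and 0.28.

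Over all 55 relatives, 7 were higher and 9 lower with IFN at 8 h in the limma fit, against 8.39% and 17.3% of all tested genes, and 8 and 6 at 12 h, against 11.1% and 16.9%. With the block these counts were 7 and 15 at 8 h, where 11.4% of all tested genes were higher and 29.2% lower, and 11 and 14 at 12 h, where 15.6% were higher and 26% lower. The shares of the relatives were thus near the background in both fits. Of the IFN changes named above, those of RUVBL2, USF2, CALM2 and CALM3 at 8 h and of KARS1, DCPS and CREB3 at 12 h were lost in 6 or more of 21 alternative settings.

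The neighbouring genes were examined with the same fit. Of the 12 nearest tested protein-coding genes (1 on each side of each gene), none passed in any of the 4 siRNA comparisons in limma, and 0, 0, 2 and 1 had an unadjusted p under 0.05. The farthest of the 12, ISOC1, lay 2044999 bases from HINT1. With the block 1 passed, in IFN-treated cells at 8 h, where the differences of the neighbours ran from -0.28 to 1.07. Some annotated genes overlap the members: LYRM7 overlaps HINT1 on the opposite strand, ARAP1 overlaps STARD10 and ENSG00000258691 overlaps BDKRB2, both on the same strand. The lincRNA ENSG00000285693 overlaps STARD10 and the processed pseudogene CKS1BP1 overlaps BDKRB2, also on the same strand. Both were tested but, not being protein-coding, were not among the 12. How reads shared between such genes, or with pseudogene copies, were assigned is not given in the sources used here, so these values are uncertain to that extent.

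The coding sequences of the 6 genes had little in common. The share of codons ending in G or C was 40.5% for HINT1 (18.2nd percentile of 12597 genes) and 44.5% for TM4SF20 (25.8th). The other 4 lay above the median of 58.8%, with 73.4% for TTC39A, 79.2% for RRAD, 80.1% for STARD10 and 85.4% for BDKRB2 (95.7th percentile). HINT1 and TM4SF20, with the lowest shares, had the largest siRNA differences in mock-treated cells. Under IFN at 8 h the largest difference was that of RRAD (1.51), whose share was 79.2%. A relation between this share and the siRNA difference was not tested. Coding lengths ran from 381 bases for HINT1 (3.9th percentile) to 1842 for TTC39A, and 5 of the 6 were shorter than the median of 1410.

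**Figure D5:**
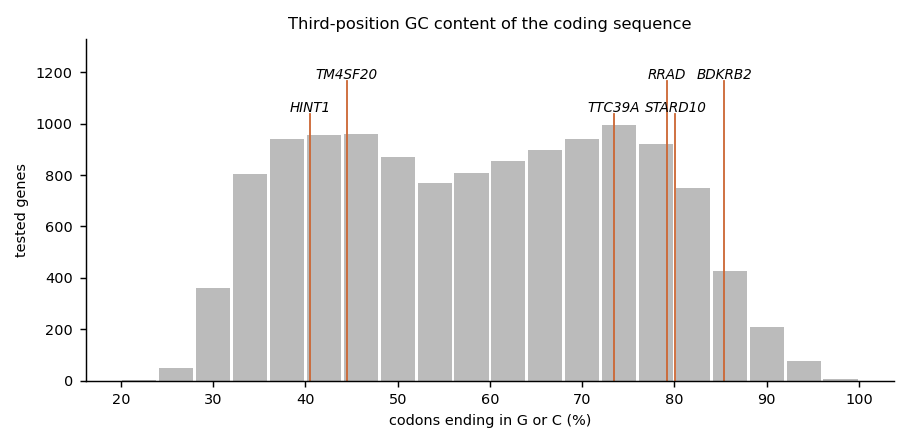
Number of tested genes (vertical axis) by percent of codons ending in G or C (horizontal axis, bins of 4 percentage points); orange lines mark the 6 genes. HINT1 and TM4SF20 lie in the lower part of the distribution and the other 4 genes in the upper part.

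The 7-base motif GCCAGTT was counted in the 3′ UTRs because it was frequent among genes lowered by the siRNA. Its share among the lowered genes is therefore a description and no test. It was present in 54 of 95 genes lower in siBOP1 mock-treated cells at 8 h that had an annotated 3′ UTR (56.84%), in 8 of 231 higher genes (3.46%) and in 9.99% of 12412 tested genes. None of the 6 genes carried it, which at a background of 9.99% is not a result about them.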

How the data were processed

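Polyadenylated RNA of 24 A549 libraries was measured. The authors deposited 1 table of TPM values. Per the labels' protocols, libraries were stranded mRNA preparations. The aligner, counting tool, genome build and annotation are not given in the sources used here. TPM keeps no depth, so depth is unknown, and no counting interval is given. The members and the gene lists were chosen with earlier results of these data known.

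The fit used limma 3.58.1 under R 4.3.3 on log2(TPM + 1), eBayes with trend and 1 mean per group over all libraries. It covered 16062 genes that reached 1 TPM in 3 libraries or more, with Benjamini-Hochberg adjustment within each comparison and a threshold of 0.05. The fit was tested on simulated data. Named relatives were those past the threshold, at most 5 per list by size of change, and the 2 genes most like each member by r. Alternatives were a pseudocount of 0.1, filters, scalings, blocks, fewer libraries and fewer groups.

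Of the columns, 16 matched a labelled replicate and 8, numbered 4, a group only. Same-numbered libraries deviated together (r of deviations 0.115 to 0.508, over 0.1 in 24 of 24 pairs), and the pairing comes from these values only.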

Additional observations from a re-analysis of the deposited data

Results flagged for a closer look

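RRAD had IFN differences of opposite sign at 8 h, -0.40 in siFLuc and 0.31 in siBOP1 cells, given as values only. All siFLuc IFN libraries (3.17 to 3.51 TPM) lay below all siFLuc mock libraries (3.77 to 5.56 TPM), and all siBOP1 IFN libraries (10.8 to 12.2 TPM) lay above all siBOP1 mock libraries (8.56 to 9.57 TPM). The IFN effect in siBOP1 minus that in siFLuc cells was 0.71 on the log2(TPM + 1) scale. Libraries separated in opposite directions in this way for 18 of the 16062 tested genes (0.112%). The difference was not tested for RRAD, because RRAD was chosen on contrasts that enter it, and nothing is read from that share. Over all tested genes, 0 passed as higher and 0 as lower for this difference at 8 h in the limma fit.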

How the results depend on the processing

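Counts of the 6 genes past the threshold moved in these settings. IFN at 8 h (1 gene) gave 2 with the libraries numbered 1 and 2 only. IFN at 12 h (2 genes) gave 1 with no filter beyond a value above 0, 1 with only the groups compared, and 1 to 3 when single libraries were left out. The mock change from 8 h to 12 h (1 gene) gave 0 with no filter, 0 with only the groups compared, and 0 to 1 without single libraries. The IFN change from 8 h to 12 h (0 genes) gave 1 with the replicate block over both times, a setting chosen after seeing the data, and 0 to 1 without single libraries. With the replicate block within each time, the counts were 1 at 8 h and 3 at 12 h, where 40.6% and 41.6% of all tested genes passed, and the block changed no other call among the 6.

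Direction changed only for values that never passed. HINT1 had 0.017 (IFN at 8 h) and -0.034 (IFN by time) after median-of-ratios rescaling, 0.088 (IFN at 12 h) and 0.13 (12 h against 8 h under IFN) with numbers 1 and 2 only. RRAD at 8 h had 0.057 after median-of-ratios rescaling and 0.034 after quantile normalization, and TM4SF20 under IFN between the times -0.046 and -0.054. TTC39A at 8 h had -0.019 with a pseudocount of 0.1 and -0.074 with numbers 1 and 2 only. When single libraries were left out, HINT1 ranged from -0.24 to 0.045 (IFN at 12 h), from -0.26 to 0.018 (12 h against 8 h under IFN) and from -0.13 to 0.15 (IFN by time), and TTC39A from -0.045 to 0.088 (8 h), from -0.18 to 0.038 (12 h) and from -0.19 to 0.037 (IFN by time). The cause was not tested. A mean filter of 5 TPM left TTC39A untested. Genes called with siBOP1 in the fits of only the groups compared were 17 higher and 24 lower, 2 and 8, 11 and 12, and 0 and 1, and with the block 949 and 415, 693 and 538, 799 and 616, and 347 and 259.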
